A study of Homo sapiens with 4 samples.

Results

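The genes described here are 36 protein-coding genes that lie at loci where inherited variants are associated with the risk of prostate cancer, out of 20136 protein-coding genes in the annotation. They were taken from the table of risk loci that the study compiled, leaving aside 18 matched genes of that table, such as KLK3, that serve here for comparison. For each gene, every peak that overlapped its span in hg19, widened by 50 kb in both directions, was collected, which gave windows of 108 to 572 kb with a median of 188 kb. The windows of 3 pairs of genes overlapped, EHBP1 with OTX1, CLDN11 with SKIL and PACSIN2 with BIK. A window also holds parts of neighboring genes, so a peak in it is not by itself a peak of the gene it is listed under.

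All data came from LNCaP, a human cell line from a prostate cancer that responds to androgen. Chromatin immunoprecipitation with sequencing (ChIP-seq) was done with an antibody to histone H3 acetylated at lysine 27 (H3K27Ac) in cells of passage 20 kept in charcoal-stripped serum, which is depleted of steroid hormones. These cells received either ethanol vehicle or 10 nM of the androgen dihydrotestosterone (DHT) for 4 h. ChIP-seq for the transcription factor TCF7L2 was done in cells of passage 15 in serum that was not stripped, given as 10% by the labels. Each condition had 1 library, so no spread between cultures was measured and no test was made. The value of a peak is its height in tags, the top of the pileup of sequenced fragments, and the sources used here name no scaling to read numbers, which the lists do not give. Heights of both H3K27Ac lists are therefore set side by side as deposited, and those of TCF7L2 are not compared with them. Intervals beside heights are exact 95% Poisson intervals that treat the height as a count, and they cover counting error only. Where a region was picked for its ratio, they do not test the difference. DNA copy number, which differs along the genome of a cancer cell line, and the input library were not analysed here.

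H3K27Ac marks active enhancers and promoters, and a distal region that carries it can act on a gene over a long stretch of DNA. Bound by DHT, the androgen receptor enters the nucleus and binds androgen response elements, mostly at enhancers. TCF7L2 is the DNA-binding partner of beta-catenin in Wnt signaling and also binds enhancers without that signal. Most variants at such risk loci lie outside coding sequence.

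The vehicle list held 57623 peaks of 9 to 212 tags, the DHT list 60752 of 10 to 213 tags and the TCF7L2 list 20955 of 15 to 229 tags. Of these, 299, 317 and 121 peaks lay in the windows of the 36 genes. A promoter was taken as 1000 bp before to 100 bp after any annotated start. All 9 markers of luminal prostate cells that were examined had an H3K27Ac peak there in both lists, and the 3 basal and 3 leukocyte markers had none. The endothelial markers VWF and CDH5 also had one, and at the canonical start alone, 8 luminal markers in the vehicle list, 9 in the DHT list and 1 endothelial marker had a peak.

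H3K27Ac stood near nearly every one of these genes. A vehicle peak lay in the window of 32 of 36 genes, against 90.5% of all protein-coding genes, and a DHT peak in that of 34 of 36, against 91.1%. FGF10, a growth factor of the stroma, had no peak in any of the 3 lists. PLOD2, which hydroxylates collagen, had TCF7L2 peaks alone. OTX1, a homeobox transcription factor, and HAPLN1, which links cartilage matrix, each had a DHT peak of 11 tags as their sole H3K27Ac. TCF7L2 peaks lay in the windows of 29 of 36 genes, against 66.8% of all genes. These shares are not corrected for the length of the windows, which differs between genes. Per 100 kb of window the median was 1.27 TCF7L2 peaks, against 0.833 over all genes.

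Overlapping vehicle and DHT peaks were joined into regions, of which the windows held 339. Of these, 260 were in both lists (76.7%, against 74.2% of all regions), 27 in the vehicle list only (7.96%, against 10.2%) and 52 in the DHT list only (15.3%, against 15.6%). The numbers per gene ran from 0 at FGF10 and PLOD2 to 26 at PACSIN2, as the plot of regions by gene shows. MLPH, ITGA6, TUBA1C, BIK, LPCAT1, TERT and SKIL had all their regions in both lists. IGF2R had the most DHT-only regions, with 6, followed by ZNF652 and PKHD1 with 5 each. The tallest of those at IGF2R had 19 tags and the others 10 or 11, near the lowest height of 10 in the DHT list. IGF2R also had 4 vehicle-only regions, of 9 or 10 tags.

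**Figure D1:**
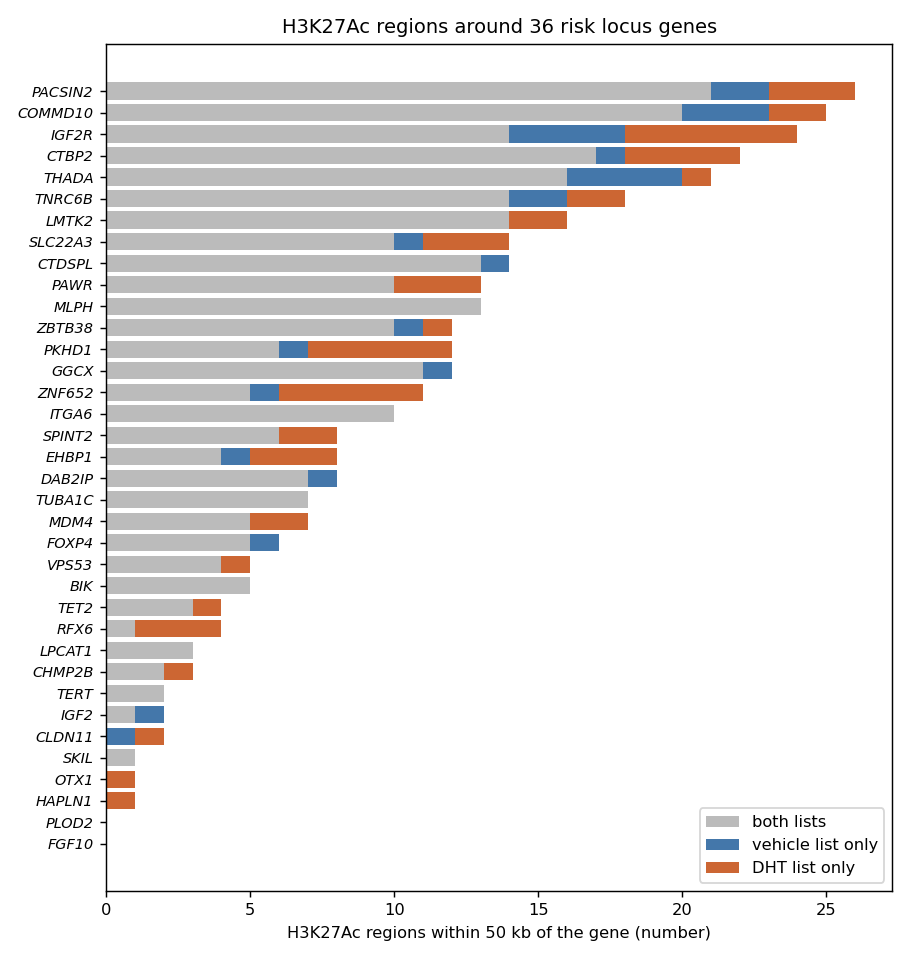
Number of H3K27Ac regions within 50 kb of each of the 36 genes (horizontal axis), split into regions in both lists (grey), in the vehicle list only (blue) and in the DHT list only (orange). PACSIN2 has 26 regions, and 5 of the 11 regions at ZNF652 are in the DHT list only.

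The shared regions had a median height of 31 vehicle tags and 34 DHT tags, and the median ratio of DHT to vehicle was 1.09, against 1.07 over all shared regions. The ratio was above 1 in 157 regions, below 1 in 91 and equal to 1 in 12. A ratio of at least 1.5 was found in 34 of 260 regions (13.1%, against 14.6% of all shared regions) and a ratio of 1/1.5 or less in 9 of 260 (3.46%, against 6.7%). After the DHT heights were divided by the median ratio of all shared regions, these counts were 26 and 18. Without this scaling, as in the counts that follow, the 18 other risk locus genes had 31 higher regions of 106 shared ones and 1 lower region. Higher regions lay near 18 of the 36 genes and lower regions near 6, and COMMD10, PKHD1 and TNRC6B had both kinds. The share of all genes with such regions was not counted, so these numbers are not read as a trait of these genes. Of the 34 higher regions, 21 lay in the gene or at its promoter, 9 in or at a neighboring gene and 4 between genes. The windows are built around the genes, so most regions of any kind lie in the gene or at its promoter.

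**Figure D2:**
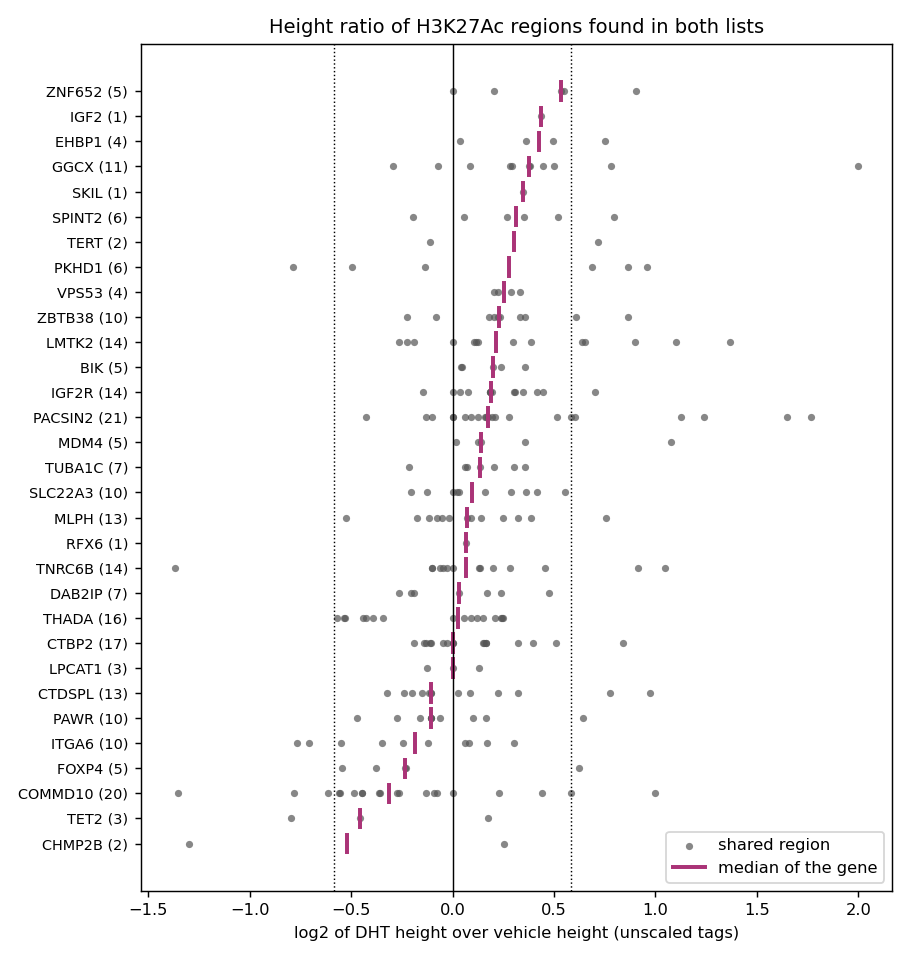
Ratio of DHT to vehicle height on a log2 scale (horizontal axis) for every region in both lists, by gene, with the number of regions in brackets and the median of the log2 ratios of each gene as a vertical bar. Dotted lines mark 1.5 times higher and lower, and ZNF652 lies at the top and COMMD10, TET2 and CHMP2B at the bottom.

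Short sequences are shown beside the regions they come from, to show the motif matches in place, all from the plus strand of GRCh37, which is the build of the files. The androgen response element (ARE) was searched as GNACA and TGTNC with any 3 bases between them, which reads the same on both strands. Within 500 bp of the middle of a region, it was found in 3 of 34 higher, 4 of 52 DHT-only, 2 of 226 other shared and 0 of 27 vehicle-only regions of these genes. Over all regions these shares were 4.77%, 6.12%, 1.24% and 0.734%, and a rearranged control motif was found in 0.706%, 0.684%, 0.743% and 0.925%. In the regions of these genes the control was found in 0 of 34, 1 of 52, 2 of 226 and 1 of 27. A match describes the letters and does not show that the receptor was bound.

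The largest ratio was found in the window of GGCX, the carboxylase that acts on vitamin K-dependent proteins. On chromosome 2 from 85833900 to 85837079 the vehicle peak had 15 tags (8.40 to 24.7) and the DHT peak 60 tags (45.8 to 77.2), a ratio of 4. Of all shared regions, 0.786% had a ratio as large, and the region is named because its ratio was the largest. It lay 46.8 kb upstream of GGCX in the bodies of USP39, a splicing factor gene, and C2orf68. The region before it, which overlaps the starts of TMEM150A and USP39, had 25 vehicle tags and 43 DHT tags. Both held an ARE, shown in capitals, the former at an annotated exon and therefore in a shorter stretch.
GGCX chr2:85835214-85835243: ctgagcagaGGACAGTCTGTTCacggctag
GGCX chr2:85830366-85830466: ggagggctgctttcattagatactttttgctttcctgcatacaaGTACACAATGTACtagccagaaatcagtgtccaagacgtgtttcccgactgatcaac
At its own start GGCX had 23 vehicle tags and 28 DHT tags, so the larger differences of its window stood over other genes. The tallest vehicle region of the window, 35.7 kb downstream of its start, had 101 vehicle tags and 96 DHT tags.

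PACSIN2, which bends membranes during endocytosis, held 6 of the 34 higher regions. The gene lies on chromosome 22 from 43231418 to 43411155 on the minus strand. Within its body, the region from 43339350 to 43342349 had 10 tags (4.80 to 18.4) with vehicle and 34 tags (23.5 to 47.5) with DHT, a ratio of 3.4. The intronic region from 43328250 to 43331999 had 29 tags (19.4 to 41.6) with vehicle and 91 tags (73.3 to 112) with DHT, a ratio of 3.14. The flanking intronic regions had 44 and 54 vehicle tags and 96 and 82 DHT tags, so that 4 successive regions were at least 1.5 times higher. The region with the largest ratio of these 4 lies at a start inside the gene and held the ARE shown in capitals.
PACSIN2 chr22:43340557-43340657: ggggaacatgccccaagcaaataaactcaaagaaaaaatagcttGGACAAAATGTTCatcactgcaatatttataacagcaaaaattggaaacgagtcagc
The tallest region of the window, in the neighboring ARFGAP3, had 159 tags in both lists. It also held an ARE, as did an intronic region of 68 vehicle tags and 62 DHT tags. Among 12 shared regions of the gene body away from its promoters, 9 had a ratio above 1 and 2 below 1. At its canonical start PACSIN2 had no vehicle peak and a DHT peak of 14 tags, whereas a start inside the gene had a vehicle peak of 70 and a DHT peak of 81 tags. Its 8 TCF7L2 peaks reached 70 tags, and 3 of them overlapped an H3K27Ac region, among them the 1 with 54 and 82 tags.

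**Figure D3:**
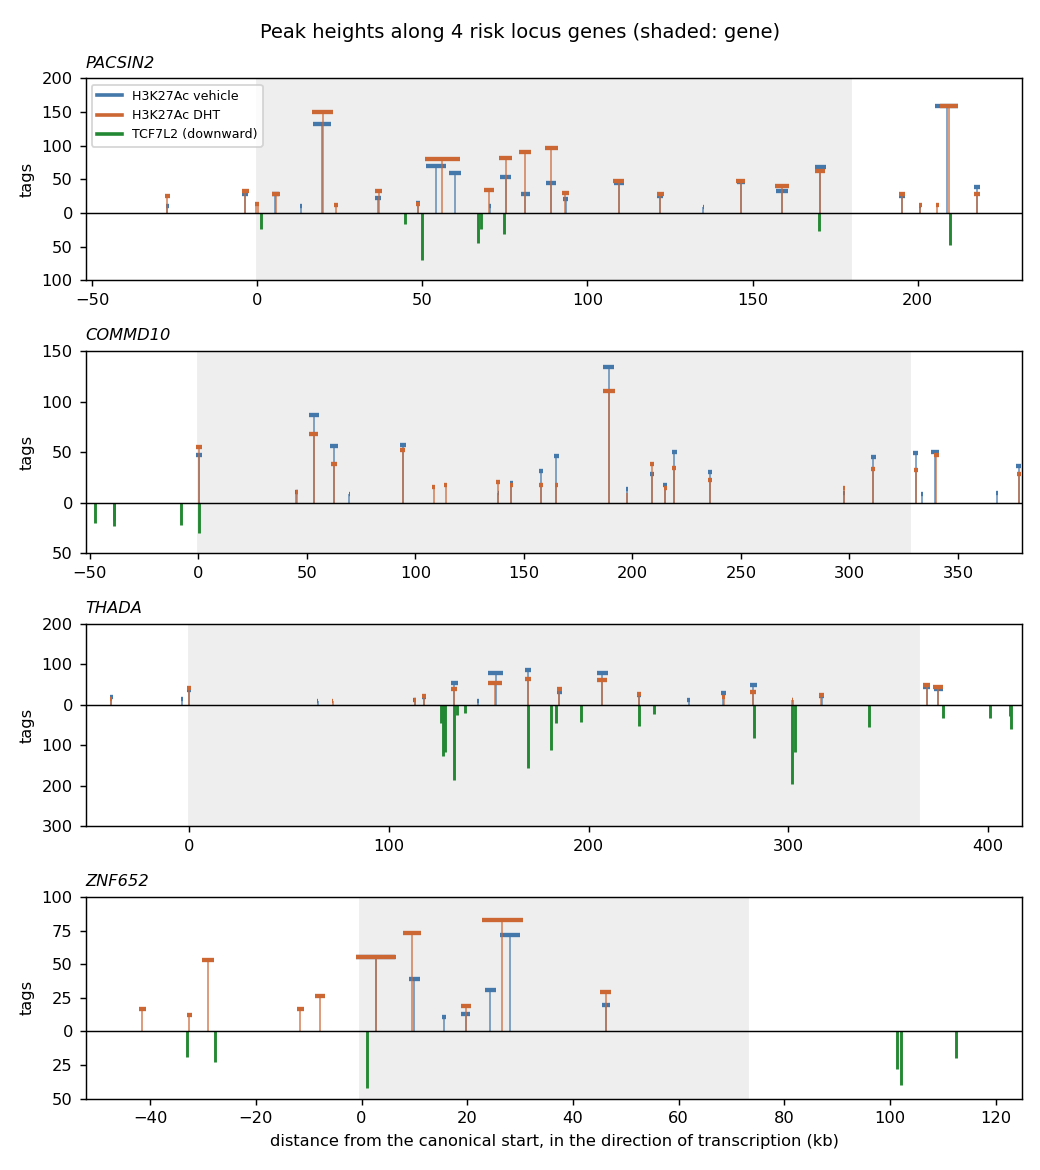
Peak heights in tags (vertical axis) against distance in kb from the canonical start (horizontal axis) for PACSIN2, COMMD10, THADA and ZNF652, with H3K27Ac vehicle in blue and DHT in orange upward and TCF7L2 in green downward. Horizontal strokes give peak widths, shading marks the gene, and the 2 scales are not comparable between antibodies.

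Among the 10 transcription and chromatin genes, ZNF652 had the most regions in the DHT list only. ZNF652, on chromosome 17 from 47366568 to 47439835 on the minus strand, encodes a zinc finger repressor. All 5 of its DHT-only regions lay upstream of its start, between 7.55 and 41.3 kb away. Their heights were 26, 17, 53, 12 and 17 tags in order of distance. That of 53 tags (39.7 to 69.3), from 47467440 to 47469749, was the tallest DHT-only region of all 36 genes, and 0.674% of all DHT-only regions were as tall. A TCF7L2 peak of 23 tags lay beside it without overlapping it. At its start ZNF652 had 55 tags in both lists, and an intronic region 9.27 kb downstream had 39 vehicle tags and 73 DHT tags. No ARE was found in the region of 53 tags or in that of 39 and 73 tags. A shared intronic region of 13 vehicle tags and 19 DHT tags held one. The 2 farthest DHT-only regions, with 12 and 17 tags, each held an ARE, the latter at an annotated exon within the neighboring PHB1.
ZNF652 chr17:47472461-47472561: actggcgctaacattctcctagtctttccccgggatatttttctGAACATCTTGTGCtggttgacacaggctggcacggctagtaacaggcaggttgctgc
ZNF652 chr17:47481352-47481381: aaactgctaGAACACTCTGTTCtgatccca

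RFX6, a transcription factor of endocrine pancreas development, had 1 vehicle peak and 4 DHT peaks in its window. The shared region, which lies across the end of the gene, had 21 and 22 tags. The 3 others were in the DHT list only, with 26 tags 4.06 kb downstream of the nearest start, 33 tags 38.8 kb downstream and 13 tags beyond the end of the gene. RFX6 had no promoter peak and no TCF7L2 peak in its window. The region of 26 and that of 13 tags each held an ARE, the former 604 bp from the middle and so outside the count within 500 bp.
RFX6 chr6:117209360-117209460: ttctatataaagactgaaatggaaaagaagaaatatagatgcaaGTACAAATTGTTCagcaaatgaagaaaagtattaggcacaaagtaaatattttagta
RFX6 chr6:117258026-117258126: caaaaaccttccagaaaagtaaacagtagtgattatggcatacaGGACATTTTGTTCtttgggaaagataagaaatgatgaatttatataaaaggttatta

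CTBP2, a corepressor, and TNRC6B, a scaffold of microRNA silencing, had broad sets of regions. CTBP2 had 22 regions, with 92 tags (vehicle) and 131 tags (DHT) at a start inside the gene, a ratio of 1.42, while its median ratio was 1. TNRC6B had 114 vehicle tags and 112 DHT tags at its canonical start and 51 and 96 tags at its most upstream start. In an intron of TNRC6B, on chromosome 22 from 40531980 to 40534049, the vehicle peak had 31 tags (21.1 to 44.0) and the DHT peak 12 tags (6.20 to 21.0), the lowest ratio of the 36 genes at 0.387. Of all shared regions, 0.0950% had a ratio as low.

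ZBTB38, a zinc finger protein that binds methylated DNA, had 11 tags with vehicle and 20 tags with DHT in a region that begins at its canonical start. Its tallest region, in an intron, had 85 vehicle tags and 109 DHT tags. FOXP4, a forkhead factor, had 24 and 37 tags at its start, a ratio of 1.54, while 4 of its 5 shared regions had a ratio below 1, among them an intragenic region of 74 and 63 tags. TET2, which oxidises methylcytosine, had 39 and 44 tags at its start, and 2 intronic regions had 40 and 48 vehicle tags and 23 and 35 DHT tags. In FOXP4 and TET2 alike, the region at the canonical start had more tags with DHT and all other shared regions had fewer, including 1 at another start of FOXP4 with 19 and 13 tags.

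CTDSPL, a phosphatase of the small C-terminal domain family, had 115 tags at its start with vehicle and 107 with DHT. An intronic region of CTDSPL had 26 vehicle tags and 51 DHT tags, a ratio of 1.96. SKIL, a repressor of transforming growth factor beta signaling, had a single region, at its start, with 55 and 70 tags. OTX1 had its sole DHT peak, of 11 tags, at its start, close to the lowest height in the list.

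Of the growth factor and signaling genes, IGF2R and LMTK2 had many regions and IGF2 few. IGF2R encodes the receptor that takes up insulin-like growth factor 2 and sorts lysosomal enzymes. Its window held 24 regions, 14 of them shared, and 12 of these had a ratio above 1. At its canonical start it had 1 vehicle peak of 76 tags, where the DHT list had 2 peaks of 66 and 78 tags, the former at the start, so that the joined region had a ratio of 1.03. A region over starts near the end of the gene had 59 tags (44.9 to 76.1) with vehicle and 96 (77.8 to 117) with DHT. No TCF7L2 peak was found in the window of IGF2R.

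LMTK2, a kinase of endosomal transport, had 5 of the 34 higher regions. Its promoter had 9 vehicle tags and 14 DHT tags, 2 intronic regions had 21 and 14 vehicle tags and 33 and 30 DHT tags, and 2 regions of TECPR1, the gene that follows, had 15 and 12 vehicle tags and 28 and 31 DHT tags. None of these 5 had over 33 tags, and the tallest region of the gene, with 80 and 86 tags, had a ratio of 1.08. DAB2IP, a GTPase activator that restrains Ras, had 98 vehicle tags and 85 DHT tags at a start inside the gene and 32 and 28 tags at its canonical start. IGF2, which encodes insulin-like growth factor 2, had 1 shared region, with 17 and 23 tags in an intron, and 1 vehicle-only region of 10 tags, with none at its promoter.

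Among the survival and telomere genes, the shared regions of MDM4 all had ratios above 1, while the tallest regions of THADA had ratios below 1. MDM4, which restrains p53, had 89 vehicle tags and 98 DHT tags at its start, and all 5 of its shared regions had a ratio above 1. THADA, which spans 365 kb, had 37 and 41 tags at its canonical start. Within the gene, its tallest regions had 86, 80, 78, 53 and 49 vehicle tags and 64, 61, 54, 39 and 33 DHT tags, ratios of 0.673 to 0.762. None of these reached the limit for a lower region. Over all 16 shared regions of its window, 8 had a ratio above 1 and 7 below 1.

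PAWR, a pro-apoptotic protein, had 55 and 59 tags at its start. A DHT-only region of 26 tags stood in one of its introns, and 7 of its 10 shared regions had a ratio below 1. BIK, a BH3-only apoptosis gene, had no peak at its promoter, and 67 vehicle tags and 69 DHT tags in an intron 3.92 kb downstream of its start. TERT, the reverse transcriptase of telomerase, had no promoter peak, and both regions of its window lay over CLPTM1L, with 80 and 14 vehicle tags and 74 and 23 DHT tags.

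The adhesion, matrix and surface genes had promoter peaks at 2 of 6 genes, against 56.3% (vehicle) and 57.5% (DHT) of all genes. This was the smallest share of the 6 role groups, which hold 3 to 10 genes each, too few to read it as a trait. SPINT2, an inhibitor of surface serine proteases, had 126 vehicle tags and 110 DHT tags at its canonical start, and a region beyond its end had 57 and 99 tags. ITGA6, a laminin receptor subunit, had 16 and 18 tags at its start, and 6 of its 10 shared regions had a ratio below 1, with 31 and 19 tags in an intron. PKHD1, which encodes fibrocystin and spans 472 kb, had no promoter peak and no TCF7L2 peak. Of its 12 regions, 5 were in the DHT list only, the tallest with 41 tags (29.4 to 55.6) in an intron 244 kb downstream of its start, and 2.43% of all DHT-only regions were as tall. Another 3 of its regions were at least 1.5 times higher, with 18, 31 and 22 vehicle tags and 35, 50 and 40 DHT tags. CLDN11, a tight junction protein, had 1 vehicle-only and 1 DHT-only region of 14 tags each, both in the neighboring SLC7A14. The former shared, with a region of THADA, the largest height among the vehicle-only regions, which reached 14 tags, against 53 for the DHT-only ones. Vehicle-only regions of 13 tags followed at DAB2IP, PKHD1 and THADA.

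All 7 trafficking and cytoskeleton genes had a promoter peak in both lists, against 56.3% (vehicle) and 57.5% (DHT) of all genes. The group is too small to read this as a trait. COMMD10, of a family of proteins in endosomal sorting, lies on chromosome 5 from 115420713 to 115748459. Its promoter had 47 vehicle tags and 55 DHT tags. Among the 16 shared regions of its body away from the promoter, 12 had a ratio below 1 and 3 above 1. The intronic region from 115584480 to 115586879 had 46 tags (33.7 to 61.4) with vehicle and 18 tags (10.7 to 28.4) with DHT, a ratio of 0.391. The tallest, with 134 and 111 tags, lay in another intron. The promoter of COMMD10 thus had a ratio above 1 and most regions of its body a ratio below 1, as the map of peak heights shows.

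MLPH, which links melanosomes to myosin, had 88 and 97 tags at its canonical start, 122 and 128 tags in an intron and 29 and 49 tags in a region 5.76 kb upstream. TUBA1C, an alpha-tubulin, had 83 and 91 tags at its canonical start, and VPS53, a subunit of a tethering complex, had 31 and 39. EHBP1, an adaptor of endocytosis, had 14 and 18 tags at its start and 49 and 69 in an intron, and all 4 of its shared regions had a ratio above 1. CHMP2B, a subunit of the membrane-cutting ESCRT-III complex, had 31 and 37 tags at its start. The other shared region of its window, at the start of the pituitary factor gene POU1F1, had 32 tags (21.9 to 45.2) with vehicle and 13 (6.92 to 22.2) with DHT, a ratio of 0.406.

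Of the enzymes and transporters, SLC22A3, an organic cation transporter, had the tallest peak at a canonical start, of 133 vehicle and 136 DHT tags. The region ran on for 61.9 kb, and where its top lies was not examined. The height is therefore not known to be that of the promoter. LPCAT1, which acylates lysophospholipids, had no promoter peak and a region of 45 tags in both lists inside the gene.

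Promoters and distal regions were compared next, over all annotated starts. A vehicle peak stood at a promoter of 25 of 36 genes, against 56.3% of all genes, and a DHT peak at that of 26 of 36, against 57.5%. In the 25 genes with both, the DHT peak was at least 1.5 times higher in 2, LMTK2 and FOXP4, against 6.38% of all gene promoters. Many genes have starts far inside their bodies, and for THADA the tallest promoter peaks of the 2 lists, with 80 and 41 tags, stood at different starts. With the canonical start of each gene alone, 22 genes had a vehicle peak and 25 a DHT peak, against 51.5% and 52.8% of all genes. Of 22 ratios 16 were above 1 and 5 below, against 8593 and 1080 of 10109 over all genes, and the median ratio was 1.11, against 1.14. The 5 lower ones were SPINT2, CTDSPL, TNRC6B, IGF2R and DAB2IP, with ratios of 0.868 to 0.982, and ZNF652 was equal. The lowest, 0.868 at IGF2R, compares 1 vehicle peak with the DHT peak at the start alone, and the joined region there had a ratio of 1.03.

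**Figure D4:**
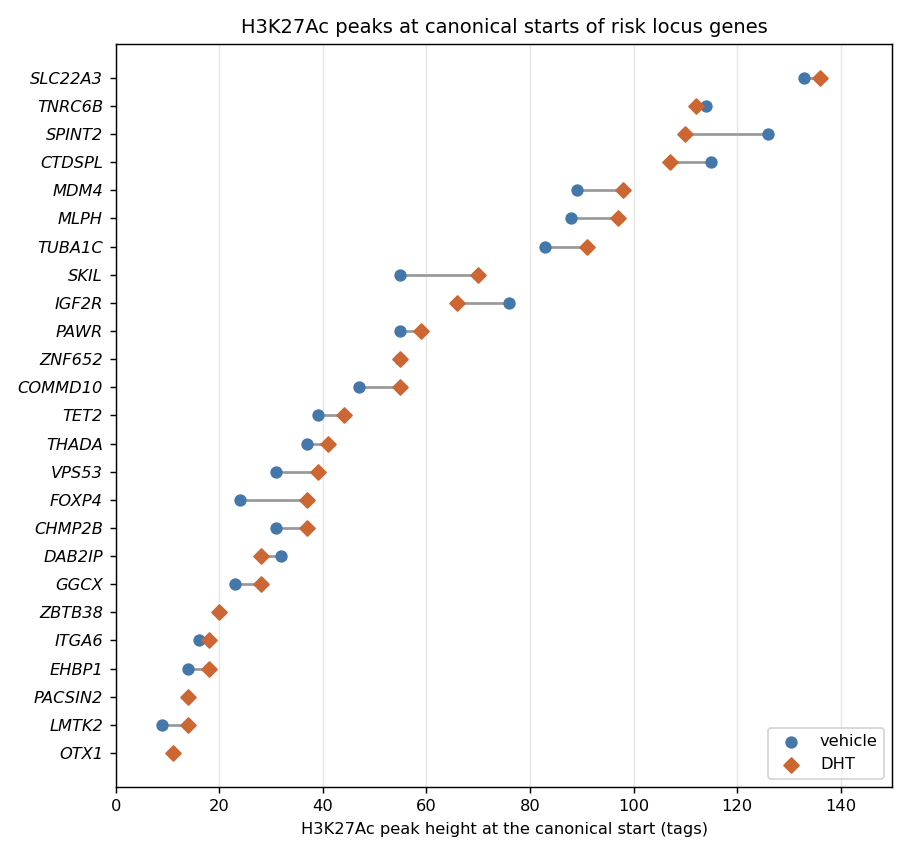
Height in tags (horizontal axis) of the H3K27Ac peak at the canonical start of the 25 genes that had one, with vehicle as blue circles and DHT as orange diamonds. ZBTB38, PACSIN2 and OTX1 have a DHT peak alone, ZNF652 has 55 tags in both lists, and the heights run from 9 tags at LMTK2 to 136 tags at SLC22A3. A height is that of the whole peak, and its top may lie away from the start.

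Regions at a promoter of any gene were set against all others, which are called distal. The 82 shared promoter regions had a median ratio of 1.16 and the 178 shared distal regions of 1.02, against 1.13 and 1.02 over all regions. DHT-only regions made up 6.67% of 90 promoter regions and 18.5% of 249 distal regions, against 5.37% and 18.2%. Lower regions numbered 1 of 82 promoter and 8 of 178 distal regions (1.22% and 4.49%, against 1.49% and 8.48%). Higher regions made up 13.4% of the shared promoter regions and 12.9% of the shared distal regions, against 8.26% and 16.7%. With 11 of 82 and 23 of 178 regions, the 2 shares of these genes were close, and their order is not read as a difference.

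TCF7L2 peaks were most numerous at THADA, with 20 in its window, a number that 0.169% of all genes reached. The window of THADA spans 465 kb, and a longer window has room for more peaks. Per length of window BIK had more, with 5.04 per 100 kb against 4.30 at THADA. The median over all genes was 0.833 and the upper quartile 1.79. The 6 peaks of BIK reached 75 tags. Of the 20 at THADA, 7 had at least 100 tags. The windows of the 36 genes held 15 such peaks of 121, against 2049 of 20955 over all TCF7L2 peaks. These 15 peaks lay at 9 of the 36 genes, and the share of all genes with such a peak was not counted. The tallest 3 at THADA had 195, 187 and 156 tags. That of 195 tags, from 43520730 to 43521749 on chromosome 2, stood near a start inside the gene over a region of 11 H3K27Ac tags in both lists, whereas those of 187 and 156 tags stood over regions of 53 and 86 vehicle tags and 39 and 64 DHT tags. The 4 other tall peaks, of 113 to 126 tags, overlapped no H3K27Ac region. The nearest TCF7L2 peak lay 126 kb from the canonical start, so that all 20 were distal to it.

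**Figure D5:**
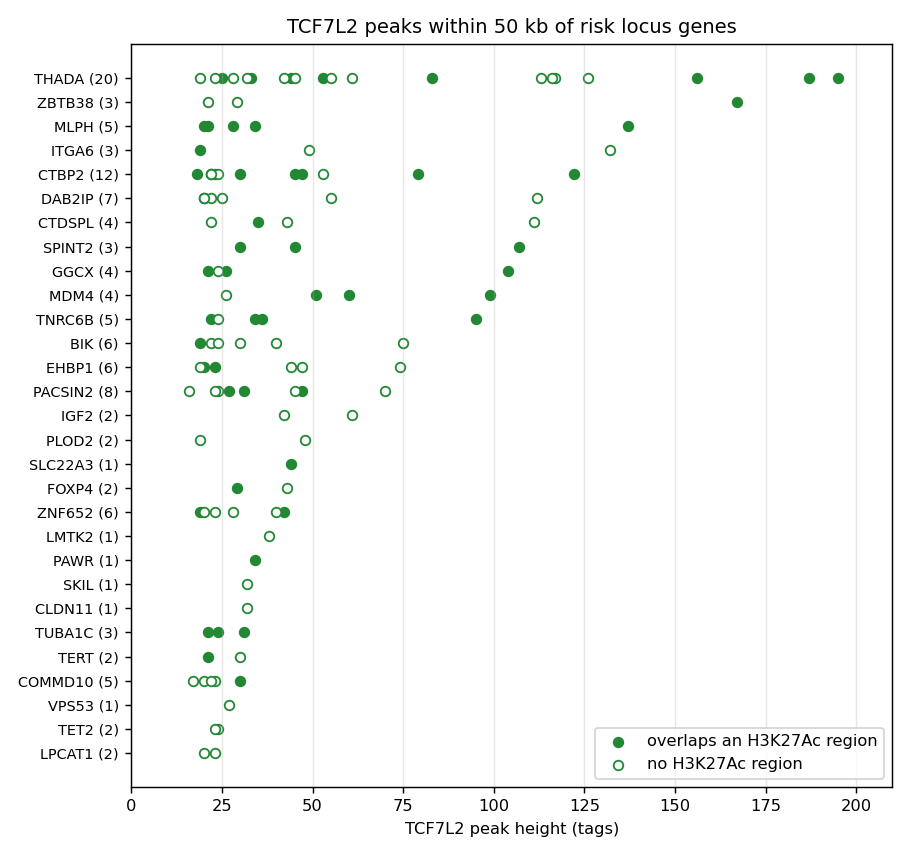
Height in tags (horizontal axis) of each TCF7L2 peak within 50 kb of the 29 genes that had one, with their number in brackets. Filled circles overlap an H3K27Ac region of either list and open circles do not, and THADA has 7 peaks of at least 100 tags.

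CTBP2 had 12 TCF7L2 peaks in a window of 277 kb, or 4.33 per 100 kb. That number of peaks was reached by 0.874% of all genes, without regard to window length. Of the 12, 9 overlapped an H3K27Ac region. The tallest, with 122 tags, stood in an intron over a DHT-only region of 11 tags. ZBTB38 had 167 tags at its canonical start, beside its H3K27Ac of 11 and 20 tags. MLPH had 137 tags in the intron with 122 and 128 tags of H3K27Ac, and all 5 of its TCF7L2 peaks lay in H3K27Ac regions. ITGA6 had 132 tags in an intron without an H3K27Ac region, and DAB2IP and CTDSPL likewise had 112 and 111 tags in introns without one. SPINT2 had 107 tags over the region beyond its end with 57 and 99 tags. TNRC6B had 95 tags in an intron over a DHT-only region of 10 tags, which held an ARE. PLOD2 had 48 tags 0.645 kb downstream of its nearest start with no H3K27Ac peak in its window. The tallest peaks of the remaining genes with a TCF7L2 peak had between 23 tags at LPCAT1 and 104 tags at GGCX. The tallest TCF7L2 peaks thus stood with, beside and apart from tall H3K27Ac.

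The TCF motif was searched as CTTTGAT or CTTTGAA on both strands within 150 bp of the middle of each TCF7L2 peak. It was found in 40 of 121 peaks (33.1%, against 29.1% of all TCF7L2 peaks), and a control of the same letters in another order was found in 12 of 121 (9.92%, against 8.18%). Of the peaks outside H3K27Ac regions 26 of 66 had the motif, and of those inside 14 of 55, against 33.0% and 21.7% over all peaks. Of the 15 peaks of at least 100 tags, 6 held it (40%, against 43.7% of all TCF7L2 peaks of at least 100 tags). Of these 6, 5 are shown with the motif in capitals, that of ZBTB38 in a shorter stretch because it is exonic. In the sixth, the peak of 107 tags at SPINT2, it lay 117 bp from the middle.
THADA chr2:43690409-43690509: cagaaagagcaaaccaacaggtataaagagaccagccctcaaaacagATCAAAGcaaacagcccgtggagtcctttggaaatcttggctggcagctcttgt
THADA chr2:43653705-43653805: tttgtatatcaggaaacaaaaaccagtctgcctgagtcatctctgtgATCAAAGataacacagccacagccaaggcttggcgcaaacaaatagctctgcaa
ZBTB38 chr3:141087207-141087236: gggcctctggacATCAAAGgttccttttgt
CTBP2 chr10:126734358-126734458: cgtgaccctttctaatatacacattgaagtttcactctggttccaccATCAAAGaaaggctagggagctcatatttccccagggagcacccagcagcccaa
DAB2IP chr9:124455027-124455127: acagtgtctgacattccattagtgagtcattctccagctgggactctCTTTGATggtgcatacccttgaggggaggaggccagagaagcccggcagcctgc
The peaks of 195 tags at THADA, 137 at MLPH and 132 at ITGA6 held neither form in this stretch. For TNRC6B, the ARE of its DHT-only region under the TCF7L2 peak of 95 tags is shown in the same way.
TNRC6B chr22:40654583-40654683: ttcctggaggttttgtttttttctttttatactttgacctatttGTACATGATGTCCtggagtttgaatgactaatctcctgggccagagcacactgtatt

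TCF7L2 peaks overlapped H3K27Ac regions in 55 of 121 cases (45.5%), against 34.5% of all TCF7L2 peaks. The median height was 33 tags inside and 28.5 tags outside H3K27Ac regions, against 30 and 33 tags over all TCF7L2 peaks, which is the opposite order. At promoters, over all annotated starts, 13 of 36 genes had a TCF7L2 peak, against 20.2% of all genes, and at canonical starts 8 of 36, against 15.9%. Of the promoter regions of any gene 25.6% and of the distal regions 10.8% overlapped a TCF7L2 peak, against 23.8% and 5.49% over all regions. By change with DHT, 5 of 34 higher regions (14.7%, against 6.07%), 0 of 9 lower regions (against 4.19%) and 4 of 52 DHT-only regions (7.69%, against 2.42%) overlapped one. Of the remaining shared regions, 40 of 217 did (18.4%, against 13.2%). The TCF7L2 library came from cells in full serum, so these overlaps combine cultures grown in different serum.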

How the data were processed

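Reads had been aligned by the authors to hg19, with Bowtie 2 for H3K27Ac and the ELAND pipeline for TCF7L2 by the paper, while the notes of the submitters on processing list CASAVA 1.8.2, BWA and Bowtie2. The authors called peaks with Sole-search in each of the 3 libraries separately, and set the more stringent false discovery rate for the histone mark. The deposited value is a signal, the peak height in whole tags. The number of reads per library was not given in the sources used here, so that depth is unknown and a peak that is missing from a list may lie under its limit.

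The annotation was GENCODE release 44 on GRCh37. All peak ends lay within the GRCh37 chromosomes. Vehicle and DHT peaks that shared at least 1 bp were joined, and the tallest peak of each list gave the height of a region. A ratio past 1.5 either way was counted. Genes were grouped into 6 roles, and the text names all 36 genes, the regions with the 3 largest and 3 smallest ratios, the tallest regions of 1 list and the 5 tallest TCF7L2 peaks; further regions were chosen after their values were seen. Other genes are named where a region overlaps them. The genes and lists were chosen with earlier results of these data known. Of 19 other listed risk locus genes 18 were matched. The code was tested on simulated peaks and motifs. Canonical starts were added as an alternative after the data had been seen. The work used Python 3.11.15, numpy 2.4.6, scipy 1.17.1, matplotlib 3.10.9 and bedtools 2.31.1. Input reads, RNA values and risk variants were not analysed here. Some items are not reported here.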

Additional observations from a re-analysis of the deposited data

How the results depend on the processing

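With 1 library per condition, no replicate could be left out. No paired analysis was possible because no group had more than 1 library. Of 55 values under other settings for 14 results, 44 stayed within 1.5 times the count or within the 95% interval of the main value. Only the median ratio had a direction that could turn, and it stayed above 1 in each setting. The comparisons with all genes or all regions were not repeated under these settings. With the 25000 tallest H3K27Ac and 15000 tallest TCF7L2 peaks, the windows held 132 regions in both lists and 21 in the DHT list only, with 11 higher and 1 lower shared regions, which follows from the shorter lists. With windows of 100 kb on either side, 14 regions were lower. With DHT heights divided by the median ratio of all shared regions (1.07), 18 regions were lower and the median ratio was 1.01. With a fold of 2, 10 were higher and 3 lower. The TCF motif was within 50 bp of the middle of 23.1% of TCF7L2 peaks. At canonical starts alone, 8 genes had a TCF7L2 promoter peak.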

Other observations

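The ARE was also counted over whole regions, and 23 of the 339 regions held at least 1 match. Longer regions have more room for one, so this number is not comparable with the shares within 500 bp of the middle. Of the 260 shared regions, 63 had at least 50 tags in both lists and 13 had at least 100. At least 100 tags in either list were reached in shared regions near 12 of the 36 genes, and the share of all genes with such a region was not counted. Of the 52 DHT-only regions, 31 had at most 12 tags, close to the lowest height of 10 tags in the DHT list. The 39 DHT-only regions in a gene or at its promoter compare with 5 in or at a neighboring gene and 8 between genes. For the 27 vehicle-only regions these numbers were 19, 3 and 5. The windows are built around the genes, so most regions of any kind lie there. Of all 339 regions, 56 lay at a promoter of the gene, 40 others touched an exon of it and 130 lay in its introns.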
